A study of Homo sapiens with 6 samples.

Results

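The 2 brightest of 6 one-colour expression arrays were compared, the array of cells exposed to a plant extract for 24 h and the array of cells exposed for 3 h. The cells were HepG2, an established human hepatoma line that keeps many features of hepatocytes. The extract, called ESB in the labels, came from Scutellaria baicalensis, a mint relative whose root is used in East Asian medicine, and was given at 100 µg/ml. The series also held 1 array of control cells and 1 array each at 1, 6 and 12 h, all of HepG2 grown in medium with fetal bovine serum, and no time is stated for the control. The comparison took genes that were well above background and not saturated on both arrays, which held for 13229 of the 17488 genes with a usable probe. Each group held 1 array, so no p-value is given, and the difference between the arrays includes whatever differed between 2 cultures, labellings and hybridisations. No vehicle is named, and because the control has no stated time, time in culture and time with the extract cannot be told apart.

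A level here is the log2 signal of a gene's probe minus the log2 of the 75th percentile of that array's probes, so that a level of 0 lies at this percentile. A difference is the level at 24 h minus the level at 3 h, on the log2 scale, and a gene was counted when it differed at least 2-fold. The error of a single gene was taken from 3681 genes with a pair of measured probes, whose disagreement gave an SD of 0.51 for the difference of 1 probe. Probes of a gene share their hybridisation, so this SD leaves out any spread between cultures, labellings or arrays. Levels of different genes are not set against each other, because probes differ in brightness.

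The 3 h and 24 h arrays had 75th percentiles of 1700 and 1460 signal units, against 139 to 983 units on the other 4 arrays. Of the probes, 73.2% were well above background at 3 h and 71.1% at 24 h, against 49.4% to 70.5% elsewhere. Saturation touched 796 probes at 3 h and 656 probes at 24 h. The spike-in spots lay at -2.47 at 3 h and at -2.63 at 24 h relative to the 75th percentile, and between -1.24 and -1.68 on the other arrays. Scaling to them in place of the 75th percentile moved the median difference of all genes by 0.16. The 3 h array lay at a position on its slide that no other array shared, and the 24 h array lay at the position that the 1 h array also had, so at least 2 slides were used. Which arrays shared a slide with them is not recorded, and slide and time cannot be told apart.

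The HepG2 label was checked against 18 markers of these cells and of fetal liver. ALB and AFP, which encode the main plasma proteins of the adult and the fetal liver, were saturated on both arrays, as were 9 of the markers in all. Another 6 markers were measured, with a median difference of 0.10 and none of them 2-fold apart. Markers of blood cells were measured for 12 of 18 genes, and the other 6 were not well above background on at least 1 of the arrays. Of the 12, 2 (16.7%) were lower and none higher at 24 h, beside 6.14% and 3.45% of all genes. Their median difference was -0.42. With quantile or cyclic loess normalization 1 was lower and 1 higher. Of 16 markers of fibroblasts and stellate cells, 8 were not well above background on at least 1 of the arrays, and none of the 8 measured was 2-fold apart. Among those not measured, VIM, an intermediate filament protein of mesenchymal cells, was not well above background at 3 h and at least 10.5-fold higher at 24 h, and PDGFRA, a growth factor receptor, was at least 5.52-fold higher. With no background filter, 3 of these 16 markers were at least 2-fold higher and 2 at least 2-fold lower, with a median of -0.11. The part of other cells in the results was not tested.

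At 24 h, 457 genes were at least 2-fold higher than at 3 h (3.45% of those measured) and 812 were at least 2-fold lower (6.14%), together 9.59%. The median difference was 0.07, and 90% of genes lay between -1.11 and 0.90. The genes higher at 24 h included enzymes and receptors of cholesterol and fatty acid supply and genes of the amino acid and integrated stress response. The genes lower at 24 h included histone genes, metallothioneins, the glutathione transferases GSTA1 and GSTA2 and some protein-folding genes of the endoplasmic reticulum. The balance of the directions depended on the scaling. The counts of higher and lower genes were 631 and 656 after quantile normalization, 588 and 685 after cyclic loess and 823 and 603 after scaling to the spike-in spots, so that the share of higher genes among those counted moved from 36% to 49.0%, 46.2% and 57.7%.

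**Figure D1:**
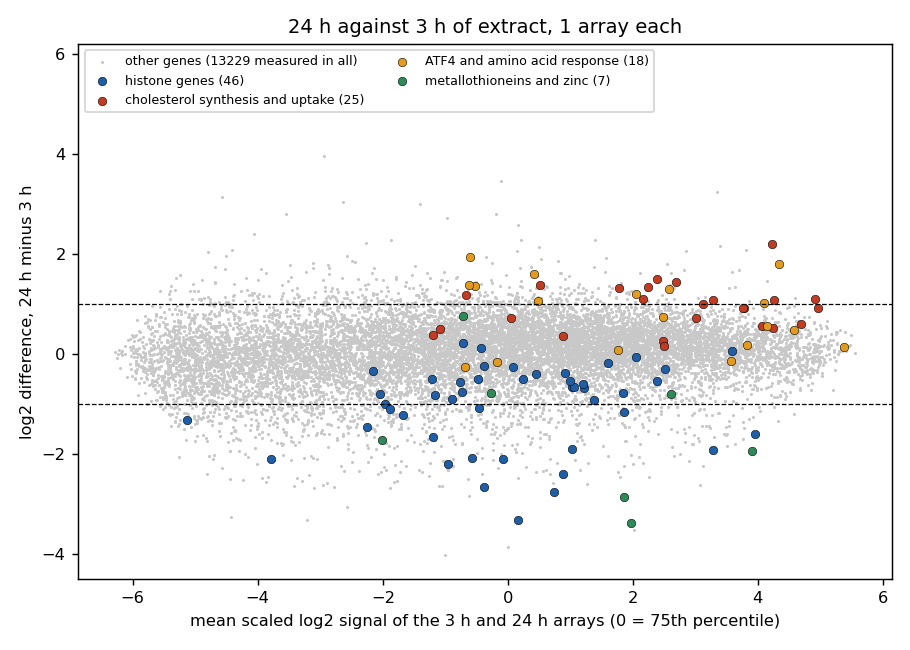
Log2 difference of 24 h minus 3 h (vertical axis) against the mean scaled log2 signal of both arrays (horizontal axis), 1 point per gene, with dashed lines at a 2-fold difference either way. All 25 cholesterol genes lie above 0, 43 of 46 histone genes lie below it, and grey points are the other measured genes.

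Dim genes were counted more often than bright ones. With the genes split into 3 groups of equal size by brightness, 171 of the 4410 dimmest were higher and 418 lower, 195 and 242 of the 4409 in the middle, and 91 and 152 of the 4410 brightest. Genes read by several probes give a check within the arrays. Among 4778 genes with 2 or more measured probes, 164 were higher and 249 were lower by the probe that stands for the gene. Every measured probe pointed the same way in 112 of the 164 and in 170 of the 249, and every probe was at least 2-fold apart in 45 and 63 genes. In 21 genes, probes were 2-fold apart in opposite directions.

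**Figure D2:**
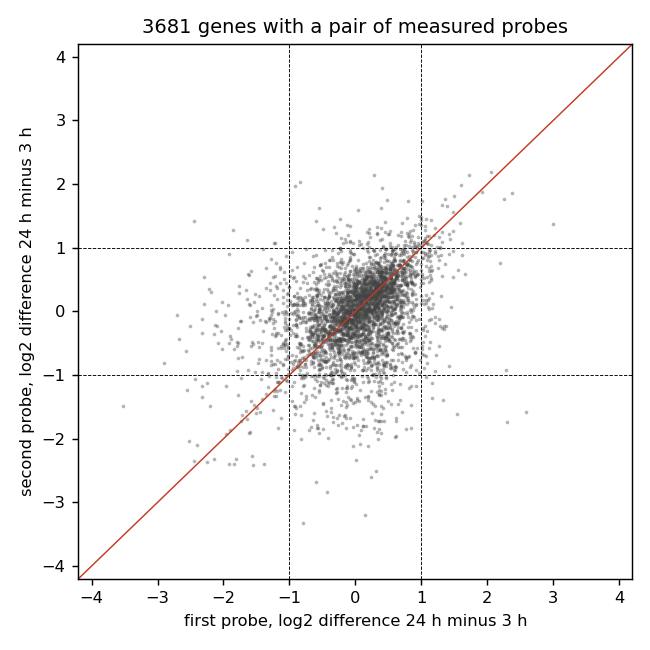
Log2 difference of 24 h minus 3 h for the first and second probe of each of 3681 genes with a pair of measured probes, 1 point per gene, with the diagonal in red and dashed lines at 2-fold. Most points lie near 0 on both axes, and points far from the diagonal are genes whose probes disagree.

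A second late-against-early comparison, 12 h minus 1 h, used arrays that share no sample with the 3 h and 24 h arrays. The 1 h and 24 h arrays lay at the same position and so on different slides. Which slides held the 3 h and 12 h arrays is not recorded. In differences that both comparisons share, slide and time cannot be told apart. The 12 h array was dim, and the probe-pair SD of that difference was 0.79. Of 12505 genes measured there, 16.3% were at least 2-fold higher at 12 h and 8.21% at least 2-fold lower. Of the 812 genes lower at 24 h than at 3 h, 706 were measured on those arrays too, and 342 of them (48.4%) were also at least 2-fold lower at 12 h than at 1 h, against 8.36% of all genes measured in both. In the other direction, 115 of 421 higher genes (27.3%) were also 2-fold higher at 12 h, against 16% of all. The shared genes made up 33.3% of the 1026 genes lower at 12 h and 5.87% of the 1959 genes higher at 12 h. Opposite 2-fold differences were seen for 9 of the 421 and 21 of the 706 genes.

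**Figure D3:**
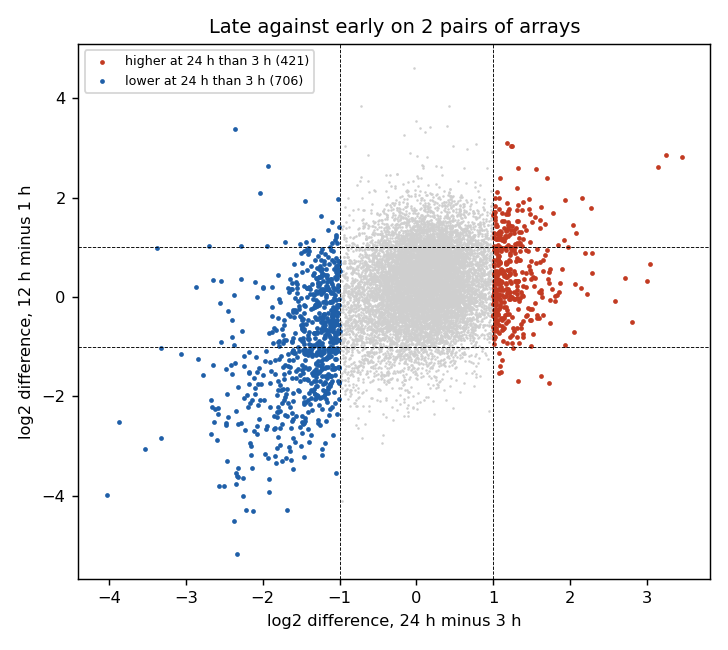
Log2 difference of 24 h minus 3 h (horizontal axis) against that of 12 h minus 1 h on 2 other arrays (vertical axis), 1 point per gene measured in both, with genes at least 2-fold higher at 24 h in red and lower in blue. Blue points lie below 0 for 551 of 706 genes and red points above 0 for 301 of 421 genes.

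Genes of cholesterol synthesis and uptake were higher at 24 h than at 3 h throughout. Cells make cholesterol from acetyl-CoA through the mevalonate pathway and take it up from lipoproteins, and the SREBP2 transcription factor raises both when sterols in the endoplasmic reticulum run low. Of 26 genes, 25 were measured and 1 was not well above background. All 25 differences were above 0, and 12 genes (48.0%) were at least 2-fold higher and none lower, against 3.45% and 6.14% of all genes. The median difference was 0.91, beside 0.07 over all genes. On the 12 h and 1 h arrays, 24 of the 25 were above 0, with a median of 1.03 beside 0.23 over all genes.

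Enzymes of the synthesis pathway were among the 12. HMGCS1 makes HMG-CoA and had levels of 1.46, 1.43, 1.97, 3.42, 2.38 and 3.40 on the control, 1, 3, 6, 12 and 24 h arrays, so that the 3 arrays from 6 h on lay above the 3 before. Its probes differed by 1.15 and 1.43 between 3 h and 24 h. MVD, which makes isopentenyl diphosphate, stood at -0.17 after 3 h and 1.20 after 24 h, with -1.10 on the control array, a 2.59-fold difference. NPC1L1, an intestinal and hepatic sterol importer, was at 1.57 and 2.91, with 1.85 on the control array, but its probes disagreed, with differences of -0.27 and 1.34. INSIG1, which holds the SREBP complex in the endoplasmic reticulum, was not well above background on either array and has no value.

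The measured list median was -0.26 at 3 h and 0.68 at 24 h relative to the control array. Both of these share an array with the comparison, so they only place it, with 3 h below the control and 24 h above it. The regulator SREBF2, which encodes SREBP2 and was chosen after its values were seen, stood at 1.13 after 3 h and 2.44 after 24 h, 2.49-fold apart. It is shown with its promoter because its own gene holds the sterol element that the factor binds. Promoters of HMGCS1 and MVD are shown for the CCAAT box, the site of the factor NF-Y, which often stands beside sterol elements. RefSeq promoters (250 bases before the start, GRCh38.p14) were found for 19 of the 26 genes. CCAAT, read on either strand (CCAAT or ATTGG), was present in 16 of these 19 promoters (84.2%), against 33.0% of 27305 promoters of the same length. The letters TCACNCCAC of the sterol element, on either strand, were present in 1 of the 19, in SREBF2, against 0.875% of all promoters. In the sequences, capitals mark CCAAT in HMGCS1 (chr5:43313413-43313662, minus strand) and MVD (chr16:88663092-88663341, minus strand) and the sterol element in SREBF2 (chr22:41832855-41833104, plus strand).
HMGCS1: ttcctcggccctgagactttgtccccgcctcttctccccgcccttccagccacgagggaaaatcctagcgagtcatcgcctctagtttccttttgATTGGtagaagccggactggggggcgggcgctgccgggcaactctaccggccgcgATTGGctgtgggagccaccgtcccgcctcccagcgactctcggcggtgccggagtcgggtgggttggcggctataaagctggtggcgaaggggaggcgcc
MVD: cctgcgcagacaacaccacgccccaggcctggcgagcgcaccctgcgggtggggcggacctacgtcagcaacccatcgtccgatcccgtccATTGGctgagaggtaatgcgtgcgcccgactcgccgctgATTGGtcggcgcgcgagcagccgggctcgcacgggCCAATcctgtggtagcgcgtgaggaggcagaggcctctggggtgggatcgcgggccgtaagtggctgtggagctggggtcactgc
SREBF2: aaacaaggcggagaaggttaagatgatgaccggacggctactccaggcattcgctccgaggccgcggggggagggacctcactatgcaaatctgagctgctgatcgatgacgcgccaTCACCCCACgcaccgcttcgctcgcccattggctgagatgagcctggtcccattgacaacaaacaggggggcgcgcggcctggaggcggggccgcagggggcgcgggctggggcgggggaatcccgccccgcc

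HMGCS1 held 2 matches and MVD held 3. A match is a description of the letters and shows no binding.

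Fatty acid and triglyceride synthesis genes lay on the same side, with 8 of 25 measured genes (32.0%) at least 2-fold higher at 24 h, none lower and a median difference of 0.69. These genes lengthen, desaturate and esterify fatty acids, many of them under the related factor SREBP1. SCD, the desaturase that makes oleate, had levels of 1.84, 2.35, 2.77, 2.26, 2.35 and 4.41 on the control, 1, 3, 6, 12 and 24 h arrays. By this probe the 24 h level was the highest, 3.11-fold above 3 h, and 3 probes gave differences of 0.93 to 1.64. Another of the probes was higher at 6 h and 12 h, at 2.98 and 3.08, than at 24 h, at 2.20. ELOVL6, which elongates palmitate, was at -1.17 and 0.66 at 3 h and 24 h, with -0.50 on the control array, 3.55-fold apart. PLIN2, the coat protein of lipid droplets, was at 3.41 and 4.86, 2.73-fold apart.

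ACACA, which makes malonyl-CoA, and ELOVL5, which elongates polyunsaturated fatty acids, were 2.40-fold and 2.32-fold higher by their main probe, but a second probe gave -0.12 for ACACA and -0.93 for ELOVL5. On the 12 h and 1 h arrays the median of the list was 0.03, with 14 of 24 genes above 0, below the median of 0.23 over all genes. Among 24 measured genes of fatty acid oxidation and ketogenesis, none was higher and 3 (12.5%) were lower, beside 3.45% and 6.14% of all genes. The median was 0.21. With quantile or cyclic loess normalization or normexp background, 1 gene was lower in place of 3. Among the 3 were SLC25A20, the carnitine carrier of mitochondria, at -1.40 and PDK4, which restrains pyruvate dehydrogenase, at -1.06. PDK4 was dim, and with normexp background correction its difference was -0.18.

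**Figure D4:**
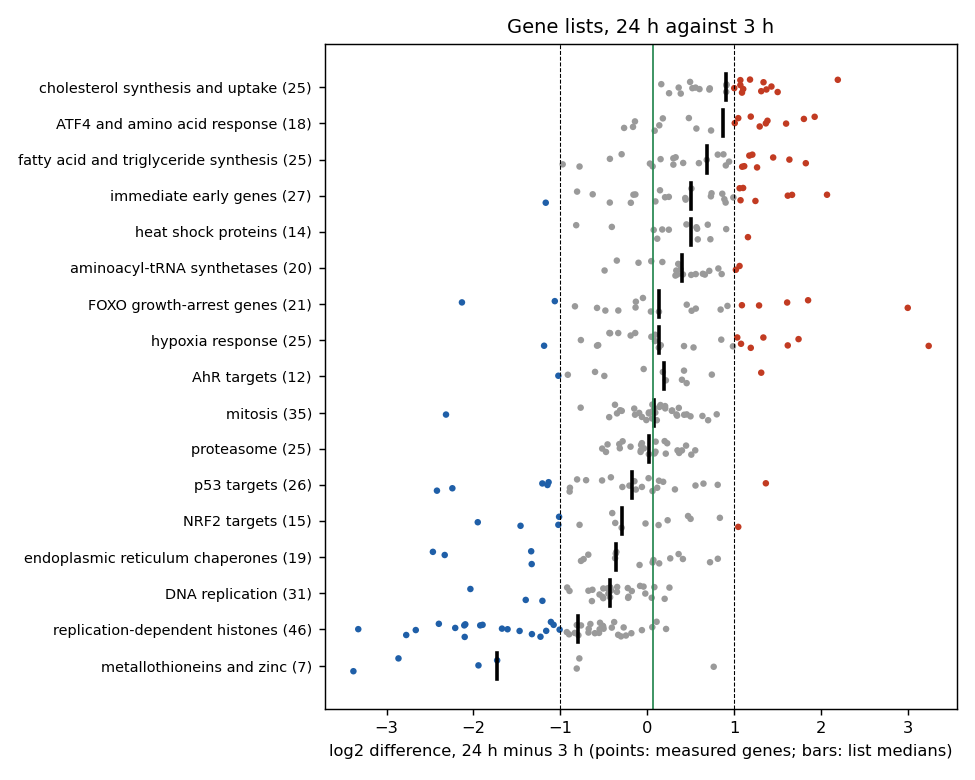
Log2 difference of 24 h minus 3 h for the measured genes of 17 lists, 1 point per gene, with the number of genes in brackets, list medians as black bars, the median of all genes as a green line and dashed lines at 2-fold. Red and blue points are genes at least 2-fold higher and lower, with cholesterol genes at the top and histones and metallothioneins at the bottom.

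Transcripts of genes of the response to amino acid shortage and other stress were mostly higher at 24 h than at 3 h. When the initiation factor eIF2 is phosphorylated, the transcription factor ATF4 is made in larger amounts and raises genes of amino acid supply, growth arrest and feedback. Of 18 measured genes of this list, 9 (50%) were at least 2-fold higher and none lower, beside 3.45% and 6.14% of all genes. The median was 0.87. Another 4 members were saturated on both arrays. The amino acid carrier SLC38A2 was saturated at 24 h only and was at least 2.62-fold higher there, and the hormone FGF21 was not well above background at 3 h and was at least 2.17-fold higher at 24 h.

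DDIT3, which encodes the stress factor CHOP, had levels of -1.45, -1.63, -1.56, -1.57, 0.33 and 0.36 on the control, 1, 3, 6, 12 and 24 h arrays. The 12 h and 24 h arrays stood clear of the 4 others, with 24 h 3.81-fold above 3 h. CEBPB, a partner of ATF4 and a liver factor, behaved differently, with levels of 5.50, 4.86, 3.43, 3.40, 4.78 and 5.23, so that 3 h and 6 h were the low arrays and 24 h lay near the control. PPP1R15A, which directs the dephosphorylation of eIF2, stood at 0.40 in the control, -0.38 after 3 h and 1.22 after 24 h, 3.03-fold apart.

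SESN2, a stress sensor that holds back the growth kinase mTORC1, stood at -0.71 in the control, -1.21 after 3 h and 0.16 after 24 h. VLDLR, a lipoprotein receptor, was at -0.07, -1.32 and 0.07. Relative to the control array the list median was -0.49 at 3 h and 0.21 at 24 h. On the 12 h and 1 h arrays the median was -0.08, with 8 of 18 genes above 0, so the direction was not shared by these arrays. Of 20 tRNA synthetases, which charge tRNAs with amino acids, 17 lay above 0 with a median of 0.40, and SARS1 and KARS1 were 2.09-fold and 2.03-fold higher. NAGS, which makes the activator of the urea cycle, was among the most raised genes read by several probes, with levels of 2.03, 1.12, 0.26, 2.10, 2.92 and 2.53 and differences of 2.23 to 2.43 over 3 probes.

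Several growth-arrest and hypoxia genes had their lowest level at 3 h by their main probe. DDIT4, an inhibitor of mTORC1 raised by hypoxia and by stress, had levels of 3.87, 2.41, 1.72, 3.09, 5.28 and 4.96 on the control, 1, 3, 6, 12 and 24 h arrays. The 3 h level was the lowest of the 6, and 24 h was 9.46-fold above it by its 1 probe. CCNG2, an unusual cyclin of resting cells that FOXO factors raise, was at 0.09, -0.95, -2.90, -2.39, -0.63 and 0.10, so that 24 h lay at the level of the control array. It was 8-fold higher at 24 h than at 3 h, with differences of 1.37 and 3.00 for its probes.

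DEPP1, another FOXO target, stood at 2.77 in the control, -0.12 after 3 h and 1.73 after 24 h, with differences of 1.85 and 2.37. HBP1, a repressor of the cell cycle, was at -0.91, -2.37 and -0.60, with probe differences of 1.76 and 2.26. Over the 21 measured genes of the FOXO list, 5 (23.8%) were higher and 2 (9.52%) lower, beside 3.45% and 6.14% of all genes. The list median was only 0.14, with -0.64 at 3 h and -0.07 at 24 h relative to the control. INSR, the insulin receptor, went the other way, at -2.41 at 3 h and -4.54 at 24 h.

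Of 25 measured hypoxia genes, 7 (28.0%) were higher and 1 (4%) was lower, beside 3.45% and 6.14% of all genes. The list median was 0.13. On the 12 h and 1 h arrays it was -0.11 beside 0.23 over all genes, with 9 of 25 genes above 0. The direction was not shared by those arrays. BHLHE40, a transcriptional repressor of the clock, stood at 1.43 in the control, -0.50 after 3 h and 1.24 after 24 h. Its lowest level was at 6 h, at -1.77. KDM3A, a histone demethylase, was 3.07-fold higher at 24 h, with differences of 1.33 to 1.62 over 3 probes. STC2, a secreted glycoprotein, was 2.29-fold higher with differences of 1.19 and 1.20, whereas PFKFB3, a regulator of glycolysis, had probes from -0.60 to 1.71. VEGFA, the vascular growth factor, was at 1.28 and 2.27, a difference of 0.99 just under 2-fold.

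Immediate early genes, which growth factors and stress switch on within minutes, showed 7 of 27 measured genes (25.9%) higher at 24 h and 1 (3.70%) lower. Over all genes 3.45% were higher and 6.14% lower. The median of the immediate early genes was 0.51. EGR1, a zinc finger factor of this class, had levels of 3.09, 2.22, 1.99, 1.93, 3.07 and 3.66, with the 1, 3 and 6 h arrays below the others. It was 3.18-fold higher at 24 h than at 3 h. FOS, a subunit of AP-1, stood at 0.53 in the control, 0.02 after 1 h, -2.09 after 3 h and -0.48 after 24 h, so that 24 h was above 3 h and below the control.

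EGR2 stood at -5.45 after 3 h and -3.38 after 24 h, and EGR3 was not well above background at 3 h and at least 4.61-fold higher at 24 h. CCN2, a matrix protein of the Hippo and TGF-beta pathways, was 2.37-fold higher. JUN, the other AP-1 subunit, was the 1 lower gene, at 3.52 in the control, 2.78 after 3 h and 1.61 after 24 h. MYC, a factor of growth and ribosome production, was at 3.91 and 3.29, a difference of -0.63 that did not reach 2-fold. The list median was -0.52 at 3 h and 0.11 at 24 h relative to the control array. On the 12 h and 1 h arrays it was 0.41 with 14 of 26 genes above 0. Over all genes measured in both comparisons, that median was 0.23 and 60.6% were above 0. The genes of the Kruppel-like family lay similarly, with medians of -0.70 and -0.06 relative to the control, and 11 of 15 were above 0 at 24 h against 3 h. Of the 15, 1 was at least 2-fold higher and 2 were lower, beside 3.45% and 6.14% of all genes. KLF9 was 2.13-fold higher, and KLF16 was 2.85-fold lower by its main probe, with -0.37 by its other probe.

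**Figure D5:**
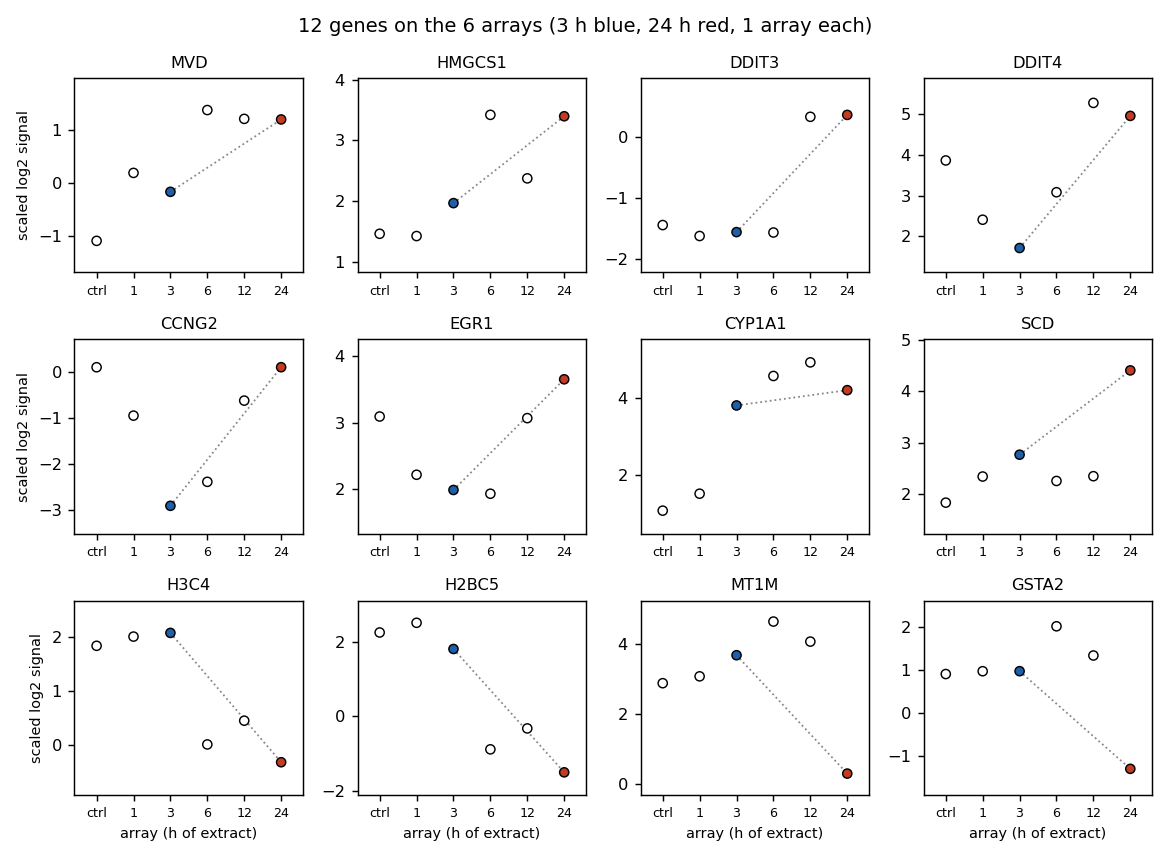
Scaled log2 signal (vertical axes, 0 at the 75th percentile, each panel with its own range) of 12 genes on the control array and at 1, 3, 6, 12 and 24 h, 1 array each, with 3 h in blue, 24 h in red and a dotted line between them. DDIT4 and CCNG2 have their lowest level at 3 h, whereas H3C4, H2BC5, MT1M and GSTA2 have their lowest level at 24 h.

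The aryl hydrocarbon receptor, which binds flat aromatic compounds and plant flavonoids, had targets that were already above the control at 3 h, CYP1A1 and AHRR among them. CYP1A1, its classical target, had levels of 1.06, 1.5, 3.81, 4.59, 4.94 and 4.21 on the control, 1, 3, 6, 12 and 24 h arrays. The 3 h and 24 h levels were both far above the control and differed from each other by 0.40, less than the SD between probes. AHRR, the repressor of the receptor, stood at -5.12 in the control, -3.70 after 3 h and -3.27 after 24 h. ALDH3A1, an aldehyde dehydrogenase, was the 1 member at least 2-fold higher, at -5.91 in the control, -4.03 after 3 h and -2.72 after 24 h. NQO1, a quinone reductase that NRF2 also controls, was the 1 lower, at 1.19, 1.65 and 0.62 on the same arrays. The 12 measured targets had a median difference of 0.20, and 10 of them had medians of 0.17 at 3 h and -0.34 at 24 h relative to the control.

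Histone genes were lower at 24 h than at 3 h. Replication-dependent histone genes lie in clusters, are transcribed as DNA is copied, and end in a stem-loop in place of a poly(A) tail. Of 51 genes, 46 were measured, and 43 of these had a difference below 0. At least 2-fold lower were 19 (41.3%) and none was higher, beside 6.14% and 3.45% of all genes. The median was -0.80. The lower genes came from every class, with 4 of 4 linker histones H1, 3 of 10 H2A, 3 of 14 H2B, 4 of 9 H3 and 5 of 9 H4 genes. On the 12 h and 1 h arrays 36 of 45 were below 0, with a median of -0.52. Histone genes share long near-identical stretches, so a probe may read several of them.

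H2BC5 had levels of 2.26, 2.53, 1.82, -0.89, -0.32 and -1.51 on the control, 1, 3, 6, 12 and 24 h arrays, so that the 3 arrays up to 3 h lay above the 3 later ones. It was 10.0-fold lower at 24 h than at 3 h by its main probe, and its other probe gave -0.80. H3C4 was at 1.84, 2.01, 2.08, 0.01, 0.45 and -0.32, with the same separation and differences of -2.40 and -1.84. H1-4, a linker histone, was at 1.59, 1.54, 0.97, -0.58, -0.40 and -1.13, again with the early arrays above the late ones.

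H4C4 stood at 3.29 in the control, 2.13 after 3 h and -0.65 after 24 h, 6.84-fold apart, and H3C12 was at 0.93, 0.95 and -1.71, 6.34-fold apart. H3C7 was 4.62-fold lower, and H2AC16 was not well above background at 24 h and at least 2.30-fold higher at 3 h. Relative to the control array the list median was -0.39 at 3 h and -1.27 at 24 h. Among RNAs that lack a poly(A) tail or stay in the nucleus, 3 of 12 were measured. MALAT1, a long nuclear RNA, had a difference of -2.63 by its main probe and -2.96 to 0.42 over 4 probes, RNU12, a spliceosomal RNA, had -0.77, and NEAT1, a nuclear RNA of paraspeckles, had 0.47. The RNA was amplified before labelling, per the labels, and the part of the RNAs' ends in the histone result was not tested.

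Promoters of H2BC5 and H3C4 are shown because histone genes differed together and CCAAT boxes are common before histone genes. Promoters were found for 46 of the 51 listed histone genes. CCAAT, on either strand, was present in 40 of the 46 (87.0%), against 33.0% of all promoters, and the octamer ATTTGCAT, on either strand, was present in 22 (47.8%), against 1.66% of all. Capitals mark CCAAT in H2BC5 (chr6:26157871-26158120, plus strand), with 4 matches, and in H3C4 (chr6:26199294-26199543, minus strand), with 3.
H2BC5: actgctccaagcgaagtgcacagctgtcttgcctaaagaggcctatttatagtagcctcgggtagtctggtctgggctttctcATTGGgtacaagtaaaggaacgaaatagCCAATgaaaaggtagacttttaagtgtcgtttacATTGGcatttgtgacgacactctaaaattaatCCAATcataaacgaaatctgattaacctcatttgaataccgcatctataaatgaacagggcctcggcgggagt
H3C4: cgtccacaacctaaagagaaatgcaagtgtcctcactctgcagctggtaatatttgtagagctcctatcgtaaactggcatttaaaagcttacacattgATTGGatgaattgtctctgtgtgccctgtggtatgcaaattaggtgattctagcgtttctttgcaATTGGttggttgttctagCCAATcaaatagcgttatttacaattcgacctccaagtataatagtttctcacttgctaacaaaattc

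CCAAT was thus frequent before the histone genes and before the cholesterol genes, whose differences had opposite directions. It was also frequent before the genes of endoplasmic reticulum chaperones (91.3%) and of mitosis (86.2%), and the mitosis genes had a median difference of 0.08.

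Most DNA replication genes had differences below 0, and few passed 2-fold. Of 31 measured genes, 27 were below 0, with a median of -0.43, and 3 (9.68%) were at least 2-fold lower and none higher, a share near the 6.14% of all genes. RRM2, a subunit of the enzyme that makes deoxynucleotides, had levels of 2.58, 2.62, 2.61, 0.42, 0.54 and 0.58, with 2 flat stretches before and after 6 h, and its probes gave -2.52 and -2.03. CDC6, which loads the replicative helicase, stood at 1.25 in the control, 1.79 after 3 h, 3.43 after 6 h and 0.40 after 24 h. POLE2, a polymerase subunit, was 2.31-fold lower. On the 12 h and 1 h arrays the median of the list was 0.35 with 21 of 31 genes above 0, so those arrays did not share the direction.

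UHRF1, which maintains DNA methylation at replication forks, stood at 1.88 after 3 h and -0.52 after 24 h, with probe differences of -2.40 and -2.11. POLD3, a polymerase subunit outside the list, had differences of -2.41 and -1.55. CCNE2, a cyclin of S phase entry, was not well above background at 24 h and at least 6.01-fold higher at 3 h. Mitosis genes had a median of 0.08, near that of all genes, and 1 of 35 was 2-fold apart. That gene was NUSAP1, a spindle protein, at -0.26 and -2.58. CCNB1, the mitotic cyclin, was at 4.03 and 4.14.

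Targets of p53 were lower for 5 of 26 genes (19.2%) and higher for 1, against 6.14% and 3.45% of all genes, with a median of -0.18. With spike-in scaling 3 were lower and the median was -0.02. MDM2, the ligase that degrades p53, stood at -1.62 in the control, -0.51 after 3 h and -2.76 after 24 h, and both of its probes were lower, by differences of -2.37 and -2.24. ZMAT3, an RNA-binding target of p53, was at -1.86, -1.97 and -4.39. CDKN1A, the cell cycle inhibitor p21 and a main p53 target, stood at 3.92 after 3 h and 3.63 after 24 h, and its probes differed by -0.29 and 0.48. BBC3, which encodes the death protein PUMA, was 2.31-fold lower by its main probe, with probes from -1.21 to 1.69, and the mean of its probes was above 0.

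All 10 metallothioneins on the array had a lower level at 24 h than at 3 h. Metallothioneins are small cysteine-rich proteins that bind zinc and copper, and the zinc sensor MTF1 raises their genes through metal response elements. Only 3 were measured on both arrays. MT1M had levels of 2.87, 3.06, 3.67, 4.63, 4.06 and 0.29 on the control, 1, 3, 6, 12 and 24 h arrays, with the 24 h array far below the 5 others and 10.4-fold below 3 h. MT1F was at 3.08, 3.15, 3.29, 3.26, 3.35 and 0.42, nearly flat to 12 h, and was 7.27-fold lower at 24 h. MT1B was at 4.87, 4.92, 4.88, 7.14, 5.94 and 2.94, 3.84-fold lower.

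The other 7 were saturated at 3 h only, so their differences are bounds. They were higher at 3 h by at least 5.33-fold for MT1E, 3.96-fold for MT1L, 2.86-fold for MT1G, 2.61-fold for MT1H, 2.60-fold for MT1A and MT1X and 1.32-fold for MT2A. A second probe of MT1X that was not saturated gave a difference of -2.25. Metallothionein genes are near-identical copies and their probes may read each other, so these are not 10 separate measurements. Among zinc carriers, SLC39A10, an importer, was at -1.16 and -2.88, and SLC30A1, an exporter that MTF1 also raises, stood at 1.18 in the control, 3.01 after 3 h and 2.20 after 24 h.

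Relative to the control, the 7 measured genes of metallothioneins and zinc had a median of 0.01 at 3 h and -1.84 at 24 h. At 12 h against 1 h the 6 genes measured there were all above 0, with a median of 0.61, so for MT1M, MT1F and MT1B the lower level was seen on the 24 h array and not at 12 h. SLC39A10 has no value in that comparison, since it was not well above background at 12 h, where its level was -7.04 after -1.44 at 1 h. The promoters of MT1X (chr16:56682220-56682469, plus strand) and MT1B (chr16:56651636-56651885, plus strand) are shown for the metal response element. Promoters were found for 8 of the 15 listed genes, and 5 of them (62.5%) held TGCACNC on either strand, against 9.73% of all promoters. The wider core TGCNCNC was present in 62.5% and 48.4%. Capitals mark TGCACNC, with 2 matches in MT1X and 3 in MT1B.
MT1X: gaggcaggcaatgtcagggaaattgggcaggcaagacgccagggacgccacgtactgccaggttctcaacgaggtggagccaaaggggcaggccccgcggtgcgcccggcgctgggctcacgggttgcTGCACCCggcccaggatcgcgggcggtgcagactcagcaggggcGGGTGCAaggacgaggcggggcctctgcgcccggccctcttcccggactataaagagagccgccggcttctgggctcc
MT1B: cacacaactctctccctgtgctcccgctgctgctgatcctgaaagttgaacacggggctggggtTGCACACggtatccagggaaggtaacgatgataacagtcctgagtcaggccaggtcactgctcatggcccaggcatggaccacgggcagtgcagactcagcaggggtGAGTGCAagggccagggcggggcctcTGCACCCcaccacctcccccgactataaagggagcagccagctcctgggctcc

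In both sequences the matches lay on both strands. These letters are a description and show no binding.

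Chaperones of the endoplasmic reticulum were lower for 4 of 19 measured genes (21.1%) and higher for none, with a median of -0.35. Over all genes 6.14% were lower and 3.45% higher. Of the 24 list members, 2 were saturated on both arrays and 3 on 1. Keeping saturated probes gave a median of -0.04. On the 12 h and 1 h arrays the list median was 0.41 beside 0.23 over all genes, with 10 of 19 genes above 0. Those arrays did not share the direction. PDIA4, a disulfide isomerase that folds secreted proteins, had levels of 3.07, 3.71, 1.78, -1.98, -1.47 and -0.55 on the control, 1, 3, 6, 12 and 24 h arrays, and was 5.03-fold lower at 24 h than at 3 h. CALU, a calcium-binding protein of the secretory pathway, stood at 3.91 in the control, 3.03 after 3 h and 0.57 after 24 h. CANX, a lectin chaperone, was 2.51-fold lower with probe differences of -1.33 and -0.98, and SSR1, a subunit of a complex beside the translocon, was 2.52-fold lower. HSPA5, the main chaperone of the compartment, was at 3.65 and 3.57 by its main probe, with -0.92 by another, and HERPUD1, of the degradation pathway, was at 3.95 and 4.77. TMED2, a cargo receptor of transport vesicles outside the list, had probe differences of -2.44 and -2.35.

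Genes of drug and glutathione metabolism were lower in part. Of 13 measured targets of the xenobiotic receptors PXR and CAR, 4 (30.8%) were lower, against 6.14% of all genes, and 1 was higher. With quantile or loess normalization, spike-in scaling, normexp background or the deposited values 2 were lower, and over all alternatives the median ran from -0.25 to 0.06. GSTA2, a glutathione transferase of liver, had levels of 0.91, 0.97, 0.97, 2.02, 1.34 and -1.30, lowest at 24 h, with probe differences of -2.28 and -1.57. GSTA1, a close copy, stood at 0.08 in the control, -0.50 after 3 h and -3.04 after 24 h, and the probes of both may read each other. CYP3A4, which oxidises many drugs, was 2.12-fold lower, and ABCB1, a drug efflux pump, was the 1 higher gene, at 0.74 and 2.38.

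Of 15 measured NRF2 targets, which protect cells from oxidants, 4 (26.7%) were lower, against 6.14% of all genes, and 1 was higher, with a median of -0.29. Over the alternative settings 2 to 4 were lower and the median ran from -0.38 to 0.04. Of the 23 targets on the array, 8 were saturated on at least 1 of the 2 arrays, and the median of 0.04 came from keeping saturated probes. TXNRD1, the thioredoxin reductase, stood at -0.39 after 3 h and -2.34 after 24 h. GCLC, which starts glutathione synthesis, was 2.75-fold lower by its main probe and at 0.24 by its other probe. HMOX1, the haem oxygenase, was at 3.08 and 2.31, a difference of -0.78. The higher gene was SLC7A11, the cystine importer, which ATF4 also raises, at -0.03 and 1.01, with probes from -0.78 to 1.65.

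Of 25 liver transcription factors, 2 were higher and 2 lower (8% each way, beside 3.45% and 6.14% of all genes). Acute phase proteins were lower for 3 of 11 measured genes (27.3%), and bile acid genes for 2 of 18 (11.1%). The higher ones were CEBPB and NR1H4, the bile acid receptor FXR, at 1.36 and 2.46. The lower ones were GATA6, an endoderm factor, at 0.23 and -2.0, and ONECUT1, a factor of liver and biliary development, at -0.43 and -2.14. CYP8B1, which makes cholic acid, stood at -1.15 in the control, -0.88 after 3 h and -3.28 after 24 h. KNG1, the kininogen of plasma, was 8.35-fold lower, and PCK1, the rate-limiting enzyme of gluconeogenesis, stood at 0.76 in the control, -1.31 after 3 h and 0.62 after 24 h, with probes at 0.40 and 1.93. Of 11 measured gluconeogenesis genes, PCK1 was the 1 higher (9.09%) and another 1 was lower (9.09%), with a median of 0.16.

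Single RNA-processing genes differed in both directions. Of 24 measured splicing factors, 2 (8.33%) were higher and 3 (12.5%) lower, beside 3.45% and 6.14% of all genes. The list median was 0.04. CLK1, a kinase of SR proteins, stood at 0.90 in the control, 0.61 after 3 h and 2.53 after 24 h, and its probes gave 1.88 and 1.92. HNRNPL, an RNA-binding protein outside the list, was at 1.24, 0.62 and -1.88, with 3 probes from -2.50 to -2.36. HNRNPH1 was 3.60-fold lower with probes from -2.57 to -0.77, and TRA2A was 9.60-fold lower by its 1 probe. TMSB4X, which binds free actin, stood at 0.86 in the control, 0.26 after 3 h and -2.38 after 24 h, with 3 probes from -3.03 to -2.65.

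Genes read by 1 measured probe held the largest single differences and have no second probe behind them. SERPINB5, a protease inhibitor family member, stood at -4.92 after 3 h and -0.97 after 24 h, 15.5-fold apart, and at -6.18 on the control array. IL11, a cytokine, was at -1.84 and 1.61, with 0.08 on the control array, and was also higher at 12 h than at 1 h by 2.82. CCL13, a chemokine, was 8.81-fold higher, and FUT1, a fucosyltransferase, was 8.21-fold higher. ZSCAN10, a zinc finger factor, was at 1.94 and -1.93, and was also lower on the 12 h array, with a difference from 1 h of -2.52. ADAMTS7, a metalloprotease read by a pair of probes, stood at 2.08 in the control, 3.79 after 3 h and 0.26 after 24 h, with differences of -3.53 and -1.48.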

How the data were processed

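RNA of HepG2 cells was read on 6 one-colour Agilent arrays, 1 per group. An RNeasy kit was used to purify RNA and a linear amplification kit to label it, per the labels' protocols. Each spot has an intensity, per the file headers, given as a processed signal from which the scanner software had subtracted background. These values were not normalized between arrays. The signal columns are those of the green channel, although Cy5, a red dye, is the label given, and the arrays were read as 1-colour. The authors' deposited value table holds linear intensity for 35646 probes. Its values are median spot signals minus local background (99.3% or more of the probes of each array lay within 0.51 units), on a linear scale, not centred, with medians of 161.5 (control), 226, 391, 40, 86 and 297.5 (after 1, 3, 6, 12 and 24 h). The build of the probes is not given in the sources used here.

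Control spots (1639 of 45015) and spots flagged as outliers were left out, spots of a probe were averaged on the log2 scale, and each array's 75th percentile over probes was subtracted. Of 41000 probes, 105 were dropped because all their spots were flagged on an array. A RefSeq table of GRCh38.p14, used for names and promoters, gave 1 symbol for 26810 probes, several for 62 and none for 14128. The probe with the highest mean level across all 6 arrays stood for a gene. Where a gene was saturated on 1 array, its bound is the difference from the saturated spot's own value. Where it was not well above background on 1 array, the dim level was set to that array's lowest signal well above background or to its own, whichever was higher. The SD between repeated spots of 264 probes was 0.10 on the 3 h and 24 h arrays, and the number of arrays limits the precision.

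The comparison, its members and its 51 gene lists were chosen with earlier results of these data known. Named genes were the 15 most raised and 15 most lowered genes whose measured probes (2 or more) all differed at least 1.5-fold in 1 direction, the 6 each way with 1 measured probe, for each list up to 5 members that differed most, and a fixed set; a few others are marked. Some genes under this rule are not reported. Alternatives were quantile and cyclic loess normalization, scaling to a median or to spike-in spots, normexp with an offset of 50, the deposited table, no background filter, saturated probes kept, and other ways to choose a probe. The scripts were tested on simulated data. Python 3.11.15, pandas 2.3.3, numpy 2.4.6, matplotlib 3.10.9, R 4.3.3 and limma 3.58.1 were used.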

Additional observations from a re-analysis of the deposited data

How the results depend on the processing

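The counts of genes at least 2-fold higher and lower, 457 and 812 in the report, were 823 and 603 after scaling to spike-in spots, 283 and 464 with normexp background, 302 and 717 with the authors' deposited values and 719 and 1612 with no background filter. At thresholds of 1.5-fold and 3-fold they were 1867 and 1902, and 63 and 244. The 342 genes lower in both late-against-early comparisons became 218 with normexp background. Over the 10 alternatives the list medians ran from 0.88 to 1.08 for cholesterol, 0.48 to 1.03 for ATF4, 0.57 to 0.84 for fatty acid synthesis, 0.47 to 0.71 for immediate early genes, -0.91 to -0.64 for histones, -2.02 to -1.38 for metallothioneins and zinc, -0.47 to -0.27 for DNA replication and -0.39 to -0.04 for endoplasmic reticulum chaperones. All of these kept their direction. The number of 2-fold higher genes ran from 8 to 15 for cholesterol and from 5 to 11 for fatty acid synthesis, and of lower genes from 13 to 21 for histones. Of the values of single genes recomputed under the alternatives, 979 in all, 27 moved by over the SD between probes and 1 changed sign, that of BBC3, at 0.30 when its probes were averaged, by the construction of that mean from probes that disagree. The cause of the other moves was not tested. Of 86 named genes at least 2-fold apart, 13 fell short of 2-fold under at least 1 alternative (ACACA, BBC3, CYP3A4, ELOVL5, GCLC, KARS1, KLF16, NPC1L1, NQO1, PDK4, PFKFB3, POLE2 and SLC7A11). No paired analysis was possible because each group holds 1 array. Leaving out a replicate was not possible for the same reason.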

Other observations

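Probes without a gene name leaned to one side. Of 7842 such probes measured on both arrays, 1257 (16%) were at least 2-fold lower at 24 h and 193 (2.46%) at least 2-fold higher, beside 6.14% and 3.45% of named genes. The units differ, since a named gene was read by its brightest probe and every unnamed probe was counted. Dim named genes were also lower more often than bright ones, and the part of brightness in the lean was not tested.

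Several cytokine and signalling genes outside the groups above also differed. NFKB1 and NFKB2, which encode subunits of NF-kappaB, were 2.68-fold and 2.87-fold higher at 24 h than at 3 h, whereas NFKBIZ, a nuclear member of the inhibitor family, was at -1.60 and -3.51. Of 18 measured genes in a list of NF-kappaB targets, 2 (11.1%) were higher and 1 (5.56%) lower, beside 3.45% and 6.14% of all genes. The median of that list was 0.25. IL1RN, the antagonist of the interleukin 1 receptor, stood at 0.99 in the control, 0.07 after 3 h and -2.07 after 24 h, with probe differences of -2.14 and -0.36. SOX9, a factor of biliary and progenitor cells, stood at 2.59 in the control, 0.98 after 3 h and -0.84 after 24 h. AXIN2, a feedback target of WNT, had 3 probes from -1.69 to -0.87. Of 19 measured WNT targets 3 (15.8%) were lower and none higher, beside 6.14% and 3.45% of all genes. Over the alternative settings 2 to 4 WNT targets were lower.

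Proteasome subunits were a contrast, with none of 25 measured genes 2-fold apart and differences from -0.52 to 0.55. The 33 cytosolic ribosomal protein genes of another list were all saturated on both arrays, so they have no difference. Among genes chosen after their values were seen, PHACTR3, a regulator of protein phosphatase 1 and actin, was not well above background at 3 h and at least 45.8-fold higher at 24 h, and RP1, a photoreceptor gene, was not well above background at 24 h and at least 14.6-fold higher at 3 h. Across all genes with such a bound, 69 were at least 2-fold higher at 24 h and 169 at least 2-fold higher at 3 h.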
